A study of Mus musculus with 18 samples.

Results

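Glycolysis, pyruvate and tricarboxylic acid (TCA) cycle genes were described in mouse embryonic stem cells (ESCs) and epiblast-like cells (EpiLCs) that received Δ9-tetrahydrocannabinol (Δ9-THC) or its vehicle. The 44 genes were chosen by name, not by a cut-off on a measured value, and with earlier results of these data known. They comprise 17 genes of glucose uptake and glycolysis, 4 of lactate formation and transport, 7 of pyruvate use, 12 of the TCA cycle and 4 that encode cytosolic partners of the cycle. All 44 were present in both tables of adjusted counts, among 13104 genes in ESCs and 13717 in EpiLCs, of which 12410 were shared. RNA was sequenced in 12 libraries, 3 for each of 4 groups, which were vehicle ESCs, ESCs exposed to 100 nM Δ9-THC, vehicle EpiLCs and EpiLCs exposed to 100 nM Δ9-THC. All 4 groups came from the BVSC line, which carries the reporters Blimp1::mVenus and Stella::ECFP. The study worked mainly with a female clone of this line and kept a male clone for comparison, and the labels do not name the clone of each library. ESCs were kept in 2i+LIF, a medium that holds them in the naive state, and were sampled after 2 days. EpiLCs, a model of the early post-implantation epiblast, were derived from those cultures with activin A, bFGF and KSR, and their exposure continued through a further 2 days. The vehicle was ethanol, and each library is labelled as a biological replicate without further detail on its culture.

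Glycolysis converts glucose to pyruvate in the cytosol. Pyruvate is then either reduced to lactate and exported or carried into mitochondria, where pyruvate dehydrogenase forms acetyl-CoA for the TCA cycle. Naive mouse pluripotent cells are known to use both glycolysis and mitochondrial respiration, whereas cells of the post-implantation epiblast depend more on glycolysis. Several steps are catalysed by isozymes encoded by different genes, and the HIF and MYC transcription factors, which bind short motifs that contain a CGTG core, are well-known regulators of many glycolytic genes.

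The genes with the largest difference between the cell types in each direction were Slc16a3, which encodes the lactate exporter MCT4, and Idh2, which encodes the mitochondrial NADP-dependent isocitrate dehydrogenase. Their upstream sequences are shown with those of Pfkl and Pfkp, a pair of phosphofructokinase genes that differed in opposite directions. The sequences were taken from the RefSeq promoter windows of build GRCm38.p6, are written 5′ to 3′ on the strand of the gene and leave out annotated exons. Capitals mark ACGTG or GCGTG on either strand. The Slc16a3 sequence (chr11:120948817-120949052, plus strand) and the Pfkl sequence (chr10:78009808-78010004, minus strand) lie in an intron of a longer transcript in GENCODE M21. The Idh2 sequence (chr7:80115393-80115600, minus strand) and the Pfkp sequence (chr13:6648778-6649021, minus strand) lie upstream of all annotated transcripts of their genes.
Slc16a3: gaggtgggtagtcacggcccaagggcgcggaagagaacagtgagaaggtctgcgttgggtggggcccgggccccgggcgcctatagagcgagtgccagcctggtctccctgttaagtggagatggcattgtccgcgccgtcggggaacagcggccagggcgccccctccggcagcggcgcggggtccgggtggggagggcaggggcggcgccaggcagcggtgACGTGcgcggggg
Idh2: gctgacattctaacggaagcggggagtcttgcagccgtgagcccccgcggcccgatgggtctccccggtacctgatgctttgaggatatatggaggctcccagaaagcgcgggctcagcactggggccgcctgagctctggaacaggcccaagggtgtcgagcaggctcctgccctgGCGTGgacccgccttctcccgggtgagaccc
Pfkl: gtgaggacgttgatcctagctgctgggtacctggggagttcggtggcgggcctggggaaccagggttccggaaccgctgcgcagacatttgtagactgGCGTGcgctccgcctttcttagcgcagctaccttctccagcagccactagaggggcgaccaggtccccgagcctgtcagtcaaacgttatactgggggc
Pfkp: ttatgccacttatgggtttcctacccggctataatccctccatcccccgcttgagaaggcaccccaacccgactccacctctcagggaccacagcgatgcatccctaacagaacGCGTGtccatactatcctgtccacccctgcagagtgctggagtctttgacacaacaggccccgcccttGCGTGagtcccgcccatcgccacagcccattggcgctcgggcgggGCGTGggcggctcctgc

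These stretches held 1 ACGTG (Slc16a3), 1 GCGTG (Idh2), 1 GCGTG (Pfkl) and 3 GCGTG (Pfkp), so genes that were higher and genes that were lower in EpiLCs both carried the motifs. Of the 44 genes, 42 (all but Slc2a3 and Idh3a) had RefSeq promoters, in 61 windows of 250 bases upstream of a start. ACGTG or GCGTG occurred on either strand in 70.5% of these windows and in 38.6% of all 32851 windows. For CACGTG, which contains ACGTG, the shares were 11.5% and 6.02%. The motif shares were 73.1% for glycolysis windows and 68.8% for TCA cycle windows. The 32851 windows covered all RefSeq promoters without regard to expression or GC content, and no matched share was computed. A match describes these letters only, and binding was not measured.

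Totals of adjusted counts ranged from 23427551 to 32096698 per library. Levels are given as CPM, counts scaled to the size of the library, as mean ± SD with n = 3, and as CPM per kb of the principal transcript where genes are compared. Summed naive markers (10 genes) were 4591 to 5030 CPM in ESC libraries and 337 to 402 CPM in EpiLC libraries. Summed formative markers were 154 to 172 CPM (6 genes in the ESC table) and 1768 to 2132 CPM (8 genes in the EpiLC table), so both labels matched their markers. Of 10 markers of other lineages, 4 were in each table, at 12.01 to 22.96 CPM in sum. In both cell types, vehicle and exposed libraries with the same replicate number deviated from their group means as near mirror images, with correlations across genes of -0.987 to -0.977 in ESCs and -0.985 to -0.979 in EpiLCs, while libraries with different numbers gave 0.223 to 0.695. The p-values below assume independent libraries, and these libraries do not vary independently. Whether the adjustment of the counts plays a part in this was not tested.

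Between vehicle ESCs and vehicle EpiLCs, most glycolysis genes were higher in EpiLCs, while Slc2a3, Hk1, Hk2 and Pfkp were lower. The TCA cycle genes were about evenly split, with Idh2 far lower in EpiLCs, and the cytosolic partners were all lower. The median difference, EpiLC minus ESC in log2 CPM, was 0.26 for the 17 glycolysis genes, -0.072 for the 12 TCA cycle genes and -0.82 for the 4 cytosolic partners, against -0.0017 for all 12410 genes. In 36 of the 44 genes (81.8%) the 3 ESC and the 3 EpiLC libraries did not overlap, against 75.4% of all genes. These were 17 genes higher in EpiLCs, where the background was 37.1%, and 19 lower, where it was 38.3%. A difference of more than 2-fold without overlap was seen in 7 genes (15.9%, background 21.3%), 3 higher and 4 lower. The authors adjusted the counts of ESCs and EpiLCs separately, so levels set across them are a description and carry no p-value. In bulk RNA, a change in the make-up of the culture and a change of RNA per cell cannot be told apart.

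**Figure D1:**
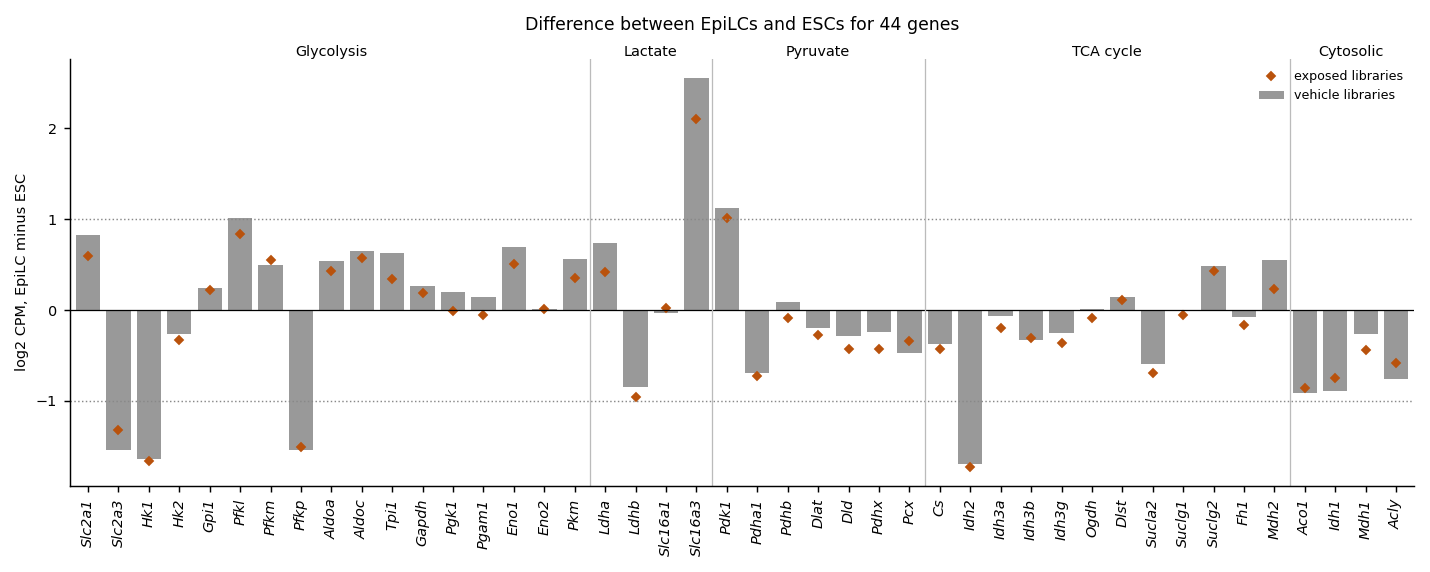
Difference in mean log2 CPM between EpiLCs and ESCs for each of the 44 genes in pathway order, in vehicle libraries (bars) and in exposed libraries (diamonds), with dotted lines at a 2-fold difference. Slc16a3, at 2.55 in vehicle libraries, stands highest, and Idh2, Hk1, Pfkp and Slc2a3 lie below the lower line under both exposures.

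Glucose enters these cells through Slc2a1 and Slc2a3, which encode the transporters GLUT1 and GLUT3. Slc2a3 (chromosome 6, 122727809 to 122801640 in GENCODE M21) was 1846, 1792 and 1738 CPM in vehicle ESCs and 616, 611 and 629.6 CPM in vehicle EpiLCs, 2.89-fold higher in ESCs. Slc2a1 (chromosome 4, 119108711 to 119137983) went the other way, with 332, 226 and 284 CPM in vehicle ESCs and 511, 458 and 511 CPM in vehicle EpiLCs, a log2 difference of 0.83. No vehicle library of either gene lay within the range of the other cell type. Per length, Slc2a3 exceeded Slc2a1 in ESCs (453 ± 13.7 against 86.1 ± 16.4 CPM per kb), whereas in EpiLCs the ranges of the transporters overlapped (156 ± 2.41 against 151 ± 9.35 CPM per kb).

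Hexokinases trap glucose by phosphorylation. Hk1 (chromosome 10, 62268855 to 62379908) was 195, 172 and 190.1 CPM in vehicle ESCs and 53.4, 63.7 and 62.0 CPM in vehicle EpiLCs, 3.11-fold higher in ESCs without overlap. Hk2, which was the more abundant per length in both cell types, differed by -0.27 in log2 CPM, and its level went from 80.5 ± 6.80 to 66.7 ± 1.83 CPM per kb. Hk1 was 48.2 ± 3.16 CPM per kb in ESCs and 15.5 ± 1.44 in EpiLCs. Gpi1, the isomerase of the next step, was 693 ± 49.4 CPM in ESCs and 822 ± 55.0 CPM in EpiLCs.

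Phosphofructokinase, which commits sugar to glycolysis, is a tetramer of liver (Pfkl), muscle (Pfkm) and platelet (Pfkp) subunits. Pfkp (chromosome 13, 6579768 to 6648777) was 504, 446 and 428 CPM in vehicle ESCs and 162, 148 and 162 CPM in vehicle EpiLCs, 2.91-fold higher in ESCs. Pfkl (chromosome 10, 77986947 to 78010083) was 285, 249 and 265 CPM in vehicle ESCs and 471, 575 and 574 CPM in vehicle EpiLCs, 2.02-fold higher in EpiLCs. The order of the subunits turned over accordingly. Per length, Pfkp led in ESCs (111 ± 9.60 CPM per kb, Pfkl 71.4 ± 4.94) and Pfkl led in EpiLCs (145 ± 15.9 CPM per kb, Pfkp 38.0 ± 2.05). Pfkm was the lowest of the 3 in both, with 20.8 ± 0.797 CPM per kb in ESCs and 29.2 ± 1.94 in EpiLCs. Pfkl, at 1.02 in log2, was the gene just inside the 2-fold limit on the higher side, and Slc2a1 was just outside it. On the lower side, Slc2a3 at -1.53 was the nearest gene beyond the limit, though not close to it, and Aco1 at -0.92 was the nearest short of it.

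**Figure D2:**
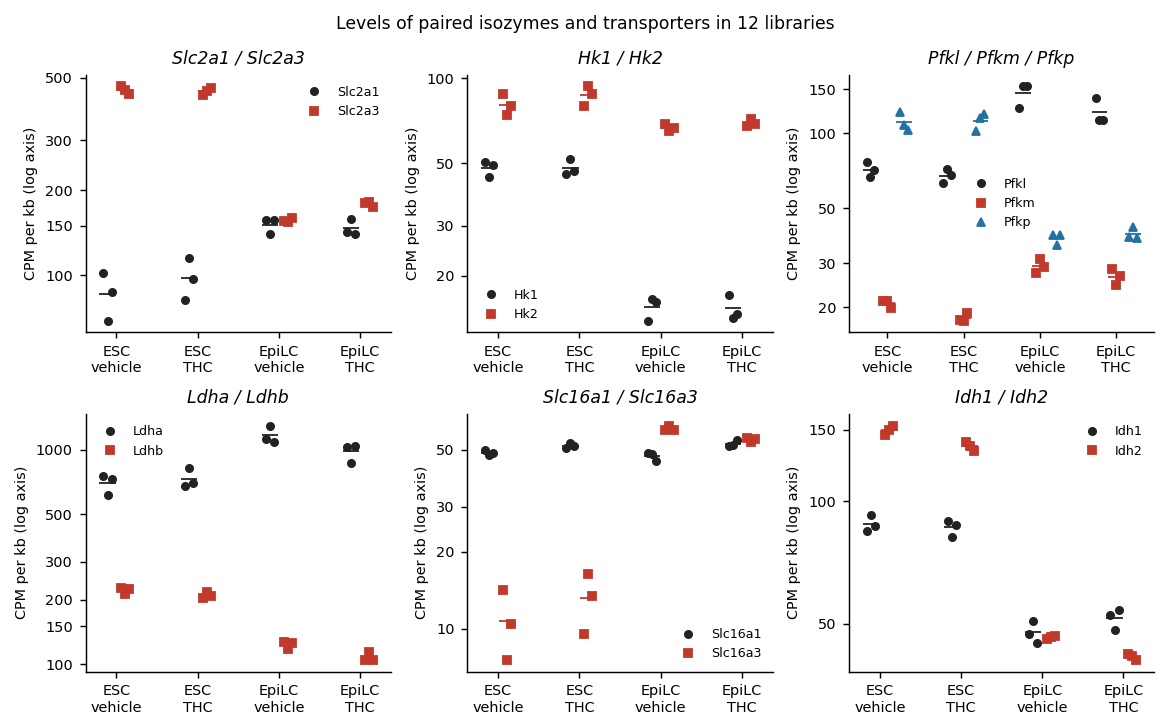
Levels in CPM per kb of transcript (log axis) of 6 groups of isozymes or transporters, with 1 point for each of the 12 libraries and a line at the group mean. The Pfkp and Pfkl points change places between ESCs and EpiLCs, and the Slc16a3 points go from 10.7 ± 3.32 to 60.7 ± 1.38 CPM per kb in vehicle libraries while Slc16a1 stays near 48.8 ± 1.10 and 47.5 ± 1.84.

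The lower part of the pathway was higher in EpiLCs at most steps, by less than 2-fold. The vehicle difference in log2 CPM was 0.54 for Aldoa and 0.65 for Aldoc, the aldolases, and 0.63 for Tpi1, which interconverts the triose phosphates. It was 0.26 for Gapdh, 0.70 for Eno1, the main enolase of these cells, and 0.56 for Pkm, the pyruvate kinase that ends the pathway. The 3 ESC and 3 EpiLC libraries did not overlap for any of these 6 genes. Pgk1 (0.20), Pgam1 (0.14) and Eno2 (0.013) had smaller differences in log2 CPM. Eno2, the neuronal enolase, was 1.18 ± 0.135 CPM per kb in ESCs against 1046 ± 21.6 for Eno1, and Aldoc was 8.31 ± 1.36 against 1006 ± 106 for Aldoa. Within the list of 17 genes, 13 were positive and 11 were higher without overlap (background 37.1%). Lower without overlap (background 38.3%) were 4, which were Slc2a3, Hk1, Hk2 and Pfkp. Groups did not overlap for 88.2% of the 17 genes, against 75.4% of all genes.

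The genes of lactate formation and export differed in both directions. Ldha, whose subunit favours lactate formation, was 1237 ± 136 CPM in vehicle ESCs and 2065 ± 198 CPM in vehicle EpiLCs. Ldhb, the other lactate dehydrogenase subunit, had 296, 277 and 291 CPM in vehicle ESCs and 165, 153 and 163 CPM in vehicle EpiLCs. The subunits therefore differed in opposite directions, 0.74 and -0.84 in log2 CPM, each without overlap. Slc16a3 (chromosome 11, 120948480 to 120960868) was 61.5, 32.7 and 45.1 CPM in vehicle ESCs and 259.6, 270.1 and 259.9 CPM in vehicle EpiLCs, 5.85-fold higher in EpiLCs and the largest difference of the 44. Slc16a1, which encodes the transporter MCT1, differed by -0.038 in log2 CPM and its libraries overlapped.

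The genes of pyruvate use were mostly lower in EpiLCs, by a median of -0.25 in log2 CPM. Of the 7, 5 were lower without overlap (background 38.3%), and 85.7% did not overlap in either direction, against 75.4% of all genes. Pdk1, a kinase that inhibits pyruvate dehydrogenase, was the 1 gene higher without overlap. Pdk1 (chromosome 2, 71873224 to 71903858) had 105, 79.5 and 88.7 CPM in vehicle ESCs and 202, 209 and 182 CPM in vehicle EpiLCs, 2.18-fold higher in EpiLCs. The E1 alpha subunit gene Pdha1, which is X-linked, was 319 ± 2.44 CPM in ESCs and 199 ± 34.9 CPM in EpiLCs. Its partner Pdhb differed by 0.084 in log2 CPM, and Dlat, Dld and Pdhx, the other components of the complex, by -0.20, -0.28 and -0.25. Pcx, which carboxylates pyruvate to oxaloacetate, was 31.9 ± 1.46 CPM in ESCs and 23.1 ± 3.10 CPM in EpiLCs.

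In the TCA cycle, 3 genes were higher without overlap (background 37.1%), 5 were lower (background 38.3%) and 4 overlapped. Groups did not overlap for 66.7% of the 12 genes, against 75.4% of all genes. Idh2 (chromosome 7, 80094846 to 80115392) was 255, 261 and 268 CPM in vehicle ESCs and 79.7, 80.8 and 81.5 CPM in vehicle EpiLCs, 3.24-fold higher in ESCs, and was the only gene of the 12 beyond 2-fold. The subunit genes of the NAD-dependent enzyme of the same step differed less, by -0.064 for Idh3a, -0.33 for Idh3b and -0.25 for Idh3g. Mdh2, the mitochondrial malate dehydrogenase, was higher in EpiLCs by 0.55, and Cs, the citrate synthase at the entry of the cycle, was lower (-0.38). The ligase subunits of the succinyl-CoA step differed in both directions. Suclg2, the GTP-specific beta subunit, was 25.3 ± 0.560 CPM per kb in ESCs and 35.4 ± 0.962 in EpiLCs, and Sucla2, the ATP-specific one, was 53.5 ± 2.08 and 35.7 ± 3.52. Suclg1, their shared alpha subunit, was 82.0 ± 1.06 and 82.1 ± 2.65 CPM per kb. Ogdh (0.013), Dlst (0.14) and Fh1 (-0.080) lay close to the median of all genes in log2 CPM.

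All 4 cytosolic partners were lower in EpiLCs without overlap (background 38.3%). Aco1, the cytosolic aconitase, differed by -0.92 in log2 CPM, Idh1 by -0.89, Mdh1 by -0.27 and Acly, which forms cytosolic acetyl-CoA from citrate, by -0.76. Per length, Idh2 exceeded its cytosolic partner Idh1 in ESCs (149.8 ± 3.92 against 88.0 ± 3.96 CPM per kb), and their ranges overlapped in EpiLCs (46.2 ± 0.494 against 47.6 ± 3.05 CPM per kb). Mdh2 exceeded Mdh1 in both cell types, with 209 ± 12.1 against 101 ± 3.47 CPM per kb in ESCs and 305 ± 24.2 against 83.9 ± 6.21 in EpiLCs.

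The same comparison in the exposed libraries had the same sign in 38 of the 44 genes. It gave 6 genes beyond 2-fold, against a background of 20.5%, and Pfkl, at 0.84 in log2, was not among them. The TCA cycle median was -0.18 in exposed libraries and -0.072 in vehicle libraries, and the glycolysis medians were 0.22 and 0.26. As shares of all counts, the 17 glycolysis genes held 1.66 ± 0.071% in vehicle ESCs and 1.94 ± 0.052% in vehicle EpiLCs (n = 3). In exposed cells they held 1.60 ± 0.063% of counts in ESCs and 1.78 ± 0.041% in EpiLCs. Abundant genes weigh most in such sums, as Gapdh was 4050 ± 89.9 CPM and Hk1 185 ± 12.2 CPM in vehicle ESCs. The 12 TCA cycle genes held 0.229 ± 0.0035% and 0.204 ± 0.013% in vehicle ESCs and EpiLCs, and 0.221 ± 0.0030% and 0.191 ± 0.012% in the exposed cells. The glycolysis shares of vehicle ESCs and vehicle EpiLCs did not overlap, nor did those of vehicle and exposed EpiLCs, while those of vehicle and exposed ESCs did. The TCA cycle shares did not overlap between vehicle ESCs (0.226 to 0.233%) and vehicle EpiLCs (0.191 to 0.218%). Those of vehicle and exposed ESCs (0.217 to 0.223%) did not overlap either, while those of vehicle and exposed EpiLCs did. Shares were taken of each library's total counts, without the normalization factors used for CPM. With those factors, the mean log2 CPM of the 12 TCA cycle genes overlapped between vehicle (7.399 to 7.447) and exposed ESCs (7.365 to 7.415). The means of the 17 glycolysis genes overlapped between vehicle ESCs (8.54 to 8.71) and vehicle EpiLCs (8.67 to 8.73). Exposed EpiLCs (8.57 to 8.66) lay below vehicle EpiLCs. TCA cycle means of vehicle EpiLCs (7.185 to 7.310) lay below those of vehicle ESCs and above those of exposed EpiLCs (7.051 to 7.164). A mean of log2 CPM weighs each gene alike, unlike a share of counts.

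**Figure D3:**
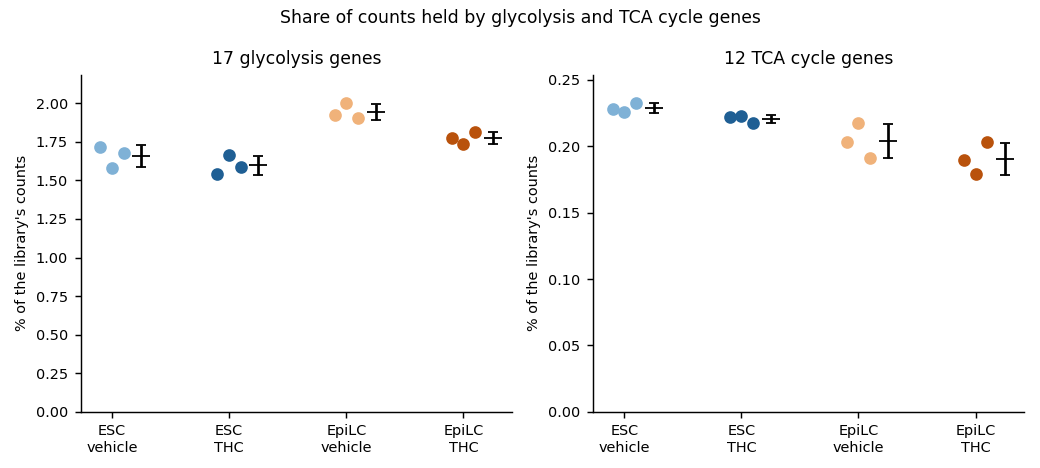
Percent of each library's counts on the 17 glycolysis genes (left) and the 12 TCA cycle genes (right), with 1 point for each of 3 libraries in a group and the mean ± SD beside them, on axes that start at 0. Glycolysis shares are highest in vehicle EpiLCs (1.90 to 2.00%), and TCA cycle shares are highest in vehicle ESCs (0.226 to 0.233%).

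Exposure to Δ9-THC within ESCs was compared next. Pcx, Idh3b and Acly were lower in exposed ESCs, which is 3 of 44 genes (6.82%), against 6.91% of all 13104 genes called in either direction and 3.55% called lower (edgeR quasi-likelihood test, Benjamini-Hochberg adjusted p of at most 0.05). None of the 17 glycolysis genes was called. The median log2(fold-change) was 0.026 for glycolysis, 0.017 for the TCA cycle and 0.0041 for all genes. At an unadjusted p under 0.05 stood 13 members (29.5%) against 28.7% of all genes, of which 4 were higher (9.09% of members, background 14.9%) and 9 lower (20.5%, background 13.8%). Groups did not overlap for 14 members (31.8%, background 32.6%), 4 higher (background 16.7%) and 10 lower (background 15.9%). Over both directions these shares were near the background. Naive markers summed to 4679.5 to 5030 CPM in vehicle and 4591 to 4927 CPM in exposed ESCs, and formative markers to 159 to 172 and 154 to 166 CPM. The log2(fold-change) was negative for 8 of the 10 naive markers and positive for 2. For the 6 formative markers it was negative for 3 and positive for 3. Without overlap, Esrrb (-0.10) and Klf2 (-0.21) were lower and Tfcp2l1 (0.11) and Otx2 (0.22) were higher, none of them called. Pou3f1 fell by 0.96 on the log2 scale, from 3.85 to 1.95 CPM (adjusted p = 0.0265, edgeR with Benjamini-Hochberg adjustment). Sox3 fell by 0.40, from 4.01 to 3.01 CPM (adjusted p = 0.0498, same test). The part of these markers in the results was not tested.

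Pcx (chromosome 19, 4510472 to 4621752 in GENCODE M21) was 31.2, 33.6 and 31.0 CPM in vehicle ESCs and 26.6, 24.6 and 26.7 CPM in exposed ESCs. Its log2(fold-change) was -0.28 ± 0.054 (SE), with an adjusted p = 0.0380 (edgeR, Benjamini-Hochberg), and every exposed library lay below every vehicle library. Acly (chromosome 11, 100476353 to 100528000) had 957, 977 and 981 CPM in vehicle ESCs and 898, 879 and 875 CPM after exposure, for a log2(fold-change) of -0.12 ± 0.026 with an adjusted p = 0.0474 (edgeR, Benjamini-Hochberg). Idh3b, the beta subunit of the NAD-dependent isocitrate dehydrogenase (chromosome 2, 130279309 to 130284547), was 119, 117 and 118 CPM in vehicle ESCs and 107, 109 and 108 CPM in exposed ESCs. Its log2(fold-change) was -0.11 ± 0.024, with an adjusted p = 0.0479 (edgeR, Benjamini-Hochberg). The groups of Acly and Idh3b did not overlap either. With any 1 of the 6 ESC libraries left out, 0 of the 44 genes and at most 1 of all genes were called. The count was also 0 of 44 with offsets for GC content and gene length and in a fit of all 12 libraries. It was 0 of 44 with the replicate number as a block too. Under the block, the adjusted p was 0.414 for Pcx, 0.508 for Acly and 0.557 for Idh3b (edgeR, Benjamini-Hochberg). DESeq2 called Pcx, Acly and Pdk1, the last with a log2(fold-change) of 0.31 (Benjamini-Hochberg adjusted p = 0.0384). Without both libraries numbered 1, a choice made after the data were seen, edgeR called Pdk1, Idh2 and Acly.

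The other members with the smallest p-values in ESCs did not pass the threshold. Suclg2 was 84.2, 83.8 and 87.2 CPM in vehicle ESCs and 92.8, 93.2 and 89.4 CPM in exposed ESCs (adjusted p = 0.0569, edgeR with Benjamini-Hochberg adjustment). Pfkm was 60.9, 61.2 and 57.1 CPM in vehicle ESCs and 51.2, 50.9 and 54.5 CPM in exposed ESCs (adjusted p = 0.0606, edgeR with Benjamini-Hochberg adjustment). Exposed libraries were all above the vehicle ones for Suclg2 and all below them for Pfkm. Idh2 had 255, 261 and 268 CPM in vehicle ESCs and 245, 239 and 232 CPM in exposed ESCs, all lower in exposed cells, with a log2(fold-change) of -0.12 ± 0.032. Slc16a1 had 221, 211 and 216 CPM in vehicle ESCs and 225, 235 and 229 CPM in exposed ESCs, all higher, with 0.11 ± 0.030. The E3 subunit gene Dld, which the pyruvate and 2-oxoglutarate dehydrogenases share, was 116, 125 and 115 CPM in vehicle ESCs and 135, 125 and 135 CPM in exposed ESCs, with 0.17 ± 0.048. The signs of the Slc16a1 and Dld values turned with offsets for GC content and gene length. With the same offsets the log2(fold-change) in ESCs was -0.18 for Pcx, -0.035 for Idh2 and 0.067 for Suclg2. Across 13083 genes, log2(fold-change) in ESCs went down with GC content (Spearman's rho -0.545, a description across genes that share libraries), and the median GC content was 54.3% for glycolysis genes, 49.2% for TCA cycle genes and 50.1% for all genes. With the offsets, the ESC medians were 0.064 for glycolysis and -0.035 for the TCA cycle.

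Within EpiLCs, no gene of the 44 was called, and none of the 13717 genes was called (0%, edgeR, Benjamini-Hochberg), while 15.1% of all genes and 13 members (29.5%) had an unadjusted p under 0.05. Of these 13, 10 were lower (background 6.8%) and 3 were higher (background 8.28%), which were Slc2a3, Slc16a1 and Pdk1. DESeq2 called 71 genes and no member. Groups did not overlap for 17 members (38.6%, background 21.8%), 14 of them lower (background 10.6%) and 3 higher (background 11.2%). The median log2(fold-change) was -0.095 for glycolysis (13 of 17 negative), -0.17 for lactate genes, -0.089 for pyruvate genes and -0.10 for the TCA cycle (10 of 12 negative), against 0.0030 for all genes. Of all 13717 genes, 6764 were negative. Most values of the glycolysis and TCA cycle genes alike were therefore below 0 in exposed EpiLCs. The count of 13 was 7 members (15.9%, against 13.3% of all genes) with the offsets for GC content and gene length. When 1 library was left out, it was 3 to 7 members (6.82% to 15.9%, against 10.2% to 13.7% of all genes). With the replicate number as a block, it was 0 members, against 2.12% of all genes. Across 13696 genes, log2(fold-change) in EpiLCs also went down with GC content (Spearman's rho -0.310, and -0.386 over the 44 members, both descriptions). Naive markers summed to 337 to 372 CPM in vehicle and 362 to 402 CPM in exposed EpiLCs, and formative markers to 1768 to 2098 and 1801 to 2132 CPM. The log2(fold-change) was positive for 9 of the 10 naive markers and was 0.60 for Prdm14, 0.41 for Tbx3 and 0.13 for Nanog, which were higher without overlap and not called. Their part in the results was not tested.

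**Figure D4:**
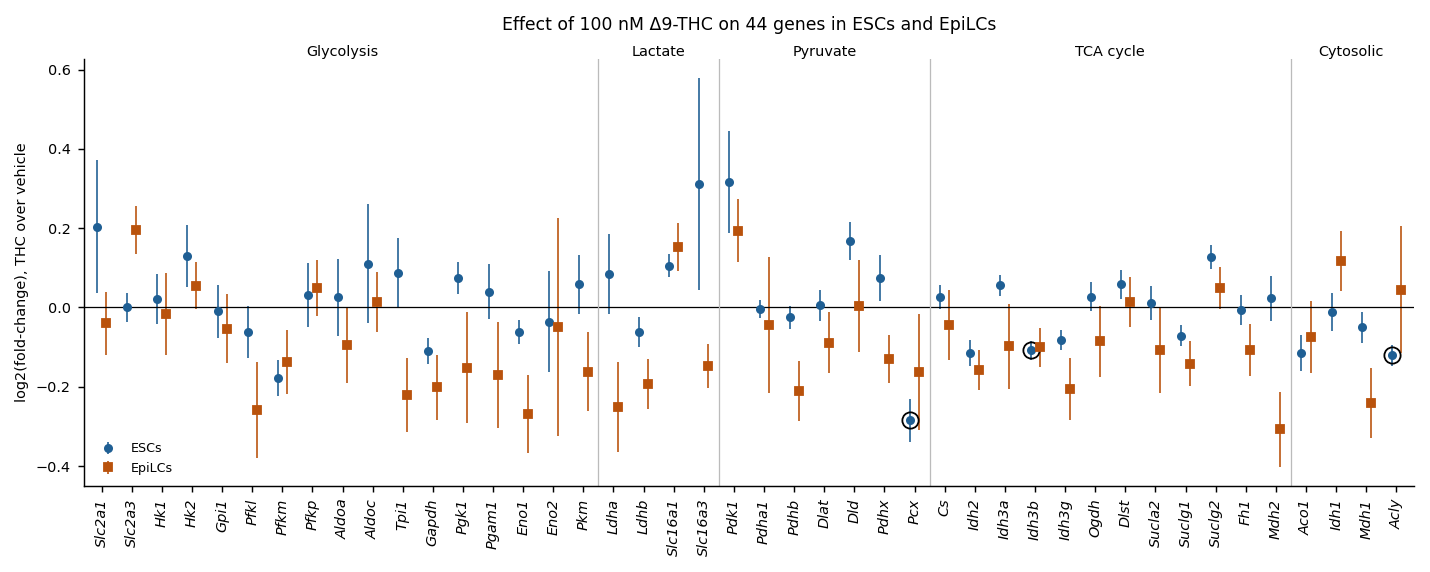
The log2(fold-change) of exposed over vehicle cells (points) with its standard error (bars) for the 44 genes in ESCs (circles) and EpiLCs (squares), with rings around the 3 genes called in ESCs. The rings mark Pcx, Idh3b and Acly, and 33 of the 44 squares lie below 0.

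The malate dehydrogenases were among the lowest values in EpiLCs. Mdh2 was 417, 484 and 432 CPM in vehicle EpiLCs and 385, 325 and 367 CPM in exposed EpiLCs, with a log2(fold-change) of -0.31 ± 0.094 and the smallest adjusted p of the 44 at 0.227 (edgeR, Benjamini-Hochberg). Mdh1 was 164, 189.8 and 181 CPM in vehicle EpiLCs and 164, 140.3 and 148 CPM in exposed EpiLCs, with -0.24 ± 0.088. The Mdh2 groups did not overlap, and the Mdh1 groups did. Idh2 had 79.7, 80.8 and 81.5 CPM in vehicle EpiLCs and 73.3, 72.6 and 71.0 CPM in exposed EpiLCs, all lower in exposed cells, with -0.16 ± 0.050. The E1 beta gene Pdhb had 182, 198 and 176 CPM in vehicle EpiLCs and 164, 149 and 167 CPM in exposed EpiLCs, with -0.21 ± 0.076 and no overlap.

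Lower glycolysis and lactate genes showed values of similar size. Eno1 was 3209, 3659.8 and 3446 CPM in vehicle EpiLCs and 3069, 2663 and 2827 CPM in exposed EpiLCs, a log2(fold-change) of -0.27 ± 0.10. Ldhb had 165, 153 and 163 CPM in vehicle EpiLCs and 136, 148 and 136 CPM in exposed EpiLCs, with -0.19 ± 0.063. Slc16a3 had 259.6, 270.1 and 259.9 CPM in vehicle EpiLCs and 242, 233 and 239 CPM in exposed EpiLCs, with -0.15 ± 0.055. For these 3 genes every exposed library was below every vehicle library. The log2(fold-change) was -0.25 for Ldha, -0.20 for Gapdh, -0.22 for Tpi1, -0.16 for Pkm and -0.26 for Pfkl, without overlap except for Pfkl. Slc2a3 went the other way, with 616, 611 and 629.6 CPM in vehicle EpiLCs and 714, 721 and 690.0 CPM in exposed EpiLCs, all higher, and a log2(fold-change) of 0.19 ± 0.061. With the offsets for GC content and gene length it was 0.12, and that of Idh2 in EpiLCs was -0.071. Slc16a1 (0.15 ± 0.060) and Pdk1 (0.19 ± 0.079) were also higher without overlap in EpiLCs. Of the genes called in ESCs, the log2(fold-change) in EpiLCs was -0.16 ± 0.15 for Pcx, -0.10 ± 0.049 for Idh3b and 0.044 ± 0.16 for Acly.

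The difference between the effects in EpiLCs and ESCs was tested as an interaction. It was called for 0 of the 44 genes, against 0.0322% of all 12410 genes (4 genes), and 2 members had an unadjusted p under 0.05, against 13.7% of all genes. These 2 were Mdh2, at -0.31 ± 0.11 in log2 with an adjusted p = 0.260, and Slc2a3, at 0.21 ± 0.078 with an adjusted p = 0.268 (edgeR, Benjamini-Hochberg). DESeq2 called 133 genes and no member. The effects of Δ9-THC on these genes were therefore not shown to differ between the cell types.

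Differences between the vehicle and exposed library of the same number varied more than these medians, although nothing in the labels says that such libraries share a culture. In ESCs, the glycolysis median of exposed minus vehicle was -0.12 for the libraries numbered 1, with 17 of 17 genes lower. It was 0.20 for those numbered 2, with 12 of 17 higher, and -0.021 for those numbered 3. In EpiLCs it was -0.033, -0.13 and -0.14. The TCA cycle medians in EpiLCs were -0.058, -0.25 and -0.047, and all 12 genes were lower in the libraries numbered 2. The pyruvate genes (-0.35) and the cytosolic partners (-0.40) were also lowest there, where Acly was 482 CPM in the exposed library against 679 CPM in the vehicle library. With both EpiLC libraries numbered 2 left out, the TCA cycle median was -0.023, and with both numbered 3 left out, the glycolysis median was 0.0035.

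**Figure D5:**
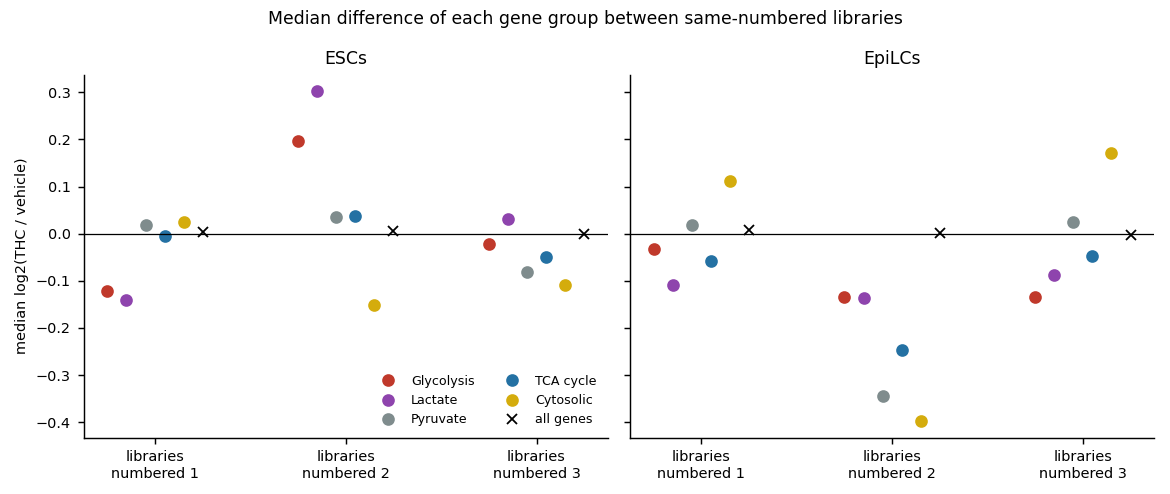
Median log2 ratio of the exposed to the vehicle library of the same number, for each gene group (circles) and for all genes (crosses), in ESCs (left) and EpiLCs (right). The ESC glycolysis medians lie on both sides of 0, from -0.12 to 0.20, and the 3 EpiLC glycolysis medians lie below 0.

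Other genes of these pathways were counted from lists drawn up around the members. Of 25 further glycolysis genes, 17 were in both tables. Of these, 1 was called in exposed ESCs (5.88%, background 6.91%) and 6 differed by more than 2-fold between vehicle cell types (35.3%, background 21.3%). Slc2a8, an intracellular sugar transporter, fell in exposed ESCs from 17.6 ± 0.417 to 13.5 ± 0.343 CPM (log2(fold-change) -0.37 ± 0.044, adjusted p = 0.0278, edgeR with Benjamini-Hochberg adjustment). Between cell types, Eno3, the muscle enolase (2.14), Slc2a4 (1.24), Pgam2 (1.25) and Ldhc (1.01) were higher in EpiLCs in log2 CPM. Pgm2 (-1.70) and Tigar (-1.33) were lower. Of Slc2a4, Pgam2 and Ldhc, the highest group mean was that of Slc2a4 in exposed EpiLCs, at 3.59 ± 1.01 CPM.

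Of 17 further genes of pyruvate metabolism and transport, 15 were in both tables and 2 fell in exposed ESCs (13.3%, against 3.55% of all genes called lower). Pdk2, another pyruvate dehydrogenase kinase, went from 8.36 ± 0.132 to 6.48 ± 0.101 CPM (-0.35 ± 0.053, adjusted p = 0.0301, edgeR with Benjamini-Hochberg adjustment). Slc25a10, the mitochondrial dicarboxylate carrier, went from 11.8 ± 0.701 to 9.06 ± 0.610 CPM (-0.37 ± 0.073, adjusted p = 0.0408, edgeR with Benjamini-Hochberg adjustment). Between vehicle cell types, Pdk4 (-1.53) and Pdpr (-1.29) were lower in EpiLCs by more than 2-fold (13.3%, background 21.3%), so the kinases Pdk1 and Pdk4 differed in opposite directions. Of 15 further TCA cycle genes, 13 were in both tables, 0 were called and Dhtkd1 (-1.33) was beyond 2-fold (7.69%). Of 13 pentose phosphate genes, 11 were in both tables, and Prps2, a phosphoribosyl pyrophosphate synthetase, rose in exposed ESCs (0.15 ± 0.026, adjusted p = 0.0324, edgeR with Benjamini-Hochberg adjustment), as 1 of the 11 (9.09%, against 3.37% of all genes called higher). Rpe (-1.05) was the 1 pentose phosphate gene lower by more than 2-fold in EpiLCs. With any 1 ESC library left out, at most 1 gene of the whole table was called. With the offsets for GC content and gene length, 2 genes of the whole ESC table were called and 0 of them were lower. The falls of Slc2a8, Pdk2 and Slc25a10 were therefore not called there. GC content was 62.4% for Slc2a8, 56.9% for Pdk2, 59.2% for Slc25a10 and 43.4% for Prps2, against a median of 50.1% for all genes. In EpiLCs, 0 genes of these lists were called after exposure, and the smallest adjusted p was 0.171 (edgeR, Benjamini-Hochberg).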

How the data were processed

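Poly(A) RNA of ESCs and EpiLCs was sequenced in 12 libraries, 3 in each of 4 groups. The authors aligned reads with STAR, kept reads that mapped to 1 place and counted them per gene with HTSeq without strand, so that overlapping antisense transcripts are not separated. They removed genes with 10 counts or fewer and adjusted the counts with ComBat-seq. The deposited ESC and EpiLC tables hold the adjusted counts as whole numbers per gene, with totals that differ between libraries. Another gene, on either strand, shares 10.7% to 16.1% of the exon length of Gpi1, Pfkm, Pkm and Pdha1. The batches and kits of the single libraries are not given in the sources used here, and the study names its genome both as mm10 and as GRCm39. Libraries of PGCLCs were not analysed here.

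Exposures were compared within each table by the quasi-likelihood test of edgeR 4.0.16 (R 4.3.3) with TMM normalization, after a filter that kept genes above 10 counts in sum. Benjamini-Hochberg adjustment over all genes and a threshold of 0.05 were used. The design assumed no covariates. The interaction was fitted on all 12 libraries over shared genes. Levels across tables are CPM with TMM factors over the 12 libraries, with log2 values on a prior count of 2. Gene positions, transcript lengths (principal transcript) and GC content came from GENCODE M21, and promoters from RefSeq (GRCm38.p6). Counts of a second Aldoa identifier (0.584 to 1.57 CPM) were not used.

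The 44 genes, the other lists and the tests were chosen with earlier results of these data known. Values in every library are given for called members, the 8 members with the smallest p-value in each cell type, and the 4 largest differences in each direction between the vehicle cell types. Alternatives were DESeq2 1.42.0, RLE normalization, leaving the filter out, a minimum of 10 counts in each library, the replicate number as a block, GC content and length offsets (splines with 5 degrees of freedom), all 12 libraries in 1 fit, a prior count of 5, CPM on library totals and leaving out libraries. The scripts were tested on simulated counts. Member counts in a library ranged from 73 (Eno2) to 150132 (Gapdh), so counting error matters for Eno2 and the spread between libraries for the others. Figures were drawn with matplotlib 3.10.9 in Python 3.11.15 (pandas 2.3.3).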

Additional observations from a re-analysis of the deposited data

How the results depend on the processing

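The count of 3 members called in ESCs was also found with RLE normalization, without a filter and with at least 10 counts in every library (Pcx, Idh3b and Acly in each) and with DESeq2 (Pcx, Acly and Pdk1). It was 0 with GC content and length offsets (2 of all genes called, against 906), 0 with all 12 libraries in 1 fit (31 of 12410 genes), and 0 to 3 over the 9 fits that left out 1 library or both libraries of a number. The cause was not tested. In the 6 fits that left out 1 library, 0 to 1 of all genes were called. Without both libraries numbered 1 there were 1757. In EpiLCs and for the interaction, 0 members were called under every alternative run, while all genes called in EpiLCs were 0 with edgeR, 71 with DESeq2 and 411 with all 12 libraries.

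Same-numbered vehicle and exposed libraries were not paired by the labels, yet they deviated from their group means in opposite directions (correlations of -0.987 to -0.977). They were therefore not independent, and the test without a block does not account for this. With the replicate block, 0 members and 5 of all genes were called in ESCs (3 and 906 without it). With the block and the GC content and length offsets, 0 members and 3 genes were called. No member was called under the block in EpiLCs or for the interaction, and in EpiLCs 0 members and 291 genes then had an unadjusted p under 0.05 (13 and 2069 without it).

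Signs turned in ESCs under the GC content and length offsets for Slc16a1 (-0.0070, and -0.0071 with the block) and Dld (-0.0057, and -0.0058 with the block). The ESC median of TCA cycle genes was -0.035 with the offsets, with or without the block. In fits that left out libraries, the ESC medians ranged from -0.080 to 0.10 for glycolysis and from -0.039 to 0.041 for the TCA cycle (-0.018 without both numbered 2). The EpiLC medians ranged from -0.18 to 0.0035 and from -0.15 to -0.023. Between cell types, 6 to 7 genes were beyond 2-fold when 1 library was left out, with Pfkl the gene that dropped out, and the glycolysis median was 0.25 to 0.29. The TCA cycle median was -0.12 to -0.037, and -0.18 with exposed in place of vehicle libraries. Fits without both libraries of a number were added after the data were seen. With 3 libraries a group that do not vary independently, small effects are the least certain.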
